A study of Homo sapiens with 4 samples.

Results

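Apolipoproteins are the protein components of lipoproteins, the particles that carry cholesterol and triglyceride in blood, and most of them are made by hepatocytes. The 10 genes APOA1, APOA2, APOA4, APOB, APOC1, APOC2, APOC3, APOE, APOH and APOM were followed here in RNA from Huh1 and Huh7 cells, both established hepatocellular carcinoma (HCC) lines. They are 10 of the 18398 transcripts measured, and each has 1 RefSeq transcript among them. APOC3 was chosen by its measured values, because it was lower with CDCA8siRNA in both cell lines, while the other 9 were taken as apolipoproteins of liver. The siRNA values of APOC3 are therefore given as a description, with no test.

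The study asked what silencing of CDCA8 does to HCC cells. CDCA8 encodes Borealin, a subunit of the chromosomal passenger complex that guides chromosome segregation. Cells were harvested 48 h after they received 15 nM of either NCsiRNA, a negative control siRNA, or CDCA8siRNA, with 1 RNA library for each of the 4 combinations of cell line and siRNA, so that no condition had a replicate. Expression is given as RPKM, in which reads are divided by transcript length and by the size of the library, so that levels can be compared between genes.

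The libraries held between 12197606 and 13384836 reads, as read from the value that 1 read takes in each of them, and 10750 to 11409 transcripts reached 1 RPKM. CDCA8 itself was at 24.1 RPKM with NCsiRNA and 5.86 RPKM with CDCA8siRNA in Huh1, and at 51.5 and 7.36 RPKM in Huh7, which left 24.3% and 14.3% of its level with NCsiRNA. Of 9 hepatocyte markers all were at 1 RPKM or more in every library. Of 18 markers of enterocytes, macrophages, endothelium and stellate cells or fibroblasts, 13 stayed under 1 RPKM in all 4 libraries. The exceptions were CDX2, at 1.17 to 1.22 RPKM in Huh7, CD68, at 3.71 to 23.3 RPKM, and in Huh7 the mesenchymal genes COL1A1, at 107 and 125 RPKM, COL3A1, at 1.89 and 4.14 RPKM, and ACTA2, at 0.720 and 1.06 RPKM. A bulk library cannot tell fewer cells of a kind from less RNA per cell.

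In background terms, APOB is the large scaffold that hepatocytes build very low density lipoprotein around and that stays with the particle as it becomes low density lipoprotein. APOA1 and APOA2 are the main proteins of high density lipoprotein. The small C apolipoproteins move between particles and set how fast their triglyceride is used, since APOC2 activates lipoprotein lipase and APOC3 slows its action and the uptake of remnants. APOE lets liver cells recognise and take up remnant particles. APOA1, APOC3 and APOA4 lie side by side on chromosome 11 and APOE, APOC1 and APOC2 on chromosome 19, which is why the genes next to both clusters were examined too.

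Positions are the gene spans of GENCODE release 29 on the GRCh38 build, 1-based. On chromosome 11, APOA4 spans chr11:116820700-116823306 on the minus strand, APOC3 spans chr11:116829706-116833072 on the plus strand and APOA1 spans chr11:116835751-116837950 on the minus strand. On chromosome 19 and the plus strand, APOE spans chr19:44905754-44909393, APOC1 spans chr19:44914247-44919349 and APOC2 spans chr19:44945982-44949565. The others lie apart, with APOA2 at chr1:161222292-161223631, APOB at chr2:21001429-21044073 and APOH at chr17:66212033-66256525, all on the minus strand, and APOM at chr6:31652416-31658210 on the plus strand. The matched transcript of APOB is the longest, with 29 exons and 14121 nucleotides, and that of APOA2 the shortest, with 4 exons and 474 nucleotides.

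Some of these loci overlap other genes. APOA1 lies opposite APOA1-AS and APOM opposite BAG6, and the read-through gene APOC4-APOC2 overlaps APOC2 on the same strand. Whether the counting used strand is not given in the sources used here, so reads of a gene and of a partner on the opposite strand cannot be told apart in these values. APOC1 has a closely related pseudogene, APOC1P1, and its level is uncertain to the extent that reads were shared between them.

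The 10 genes ranged from highly expressed to barely detected. APOA2 was the most abundant in Huh1, at 1072 RPKM with NCsiRNA and 1336 RPKM with CDCA8siRNA, where it ranked 55 and 30 among all transcripts. In Huh7 it was at 163 and 164 RPKM, at ranks 386 and 363. In Huh7 APOE was the most abundant of the 10, at 193 and 236 RPKM and ranks 299 and 220. APOA2 was thus the leading apolipoprotein transcript of one line and APOE that of the other, with either siRNA.

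APOA4, an apolipoprotein made mainly by the intestine, was at 0.0512 RPKM in Huh1 with NCsiRNA, 0.415 RPKM in Huh1 with CDCA8siRNA, 0.225 RPKM in Huh7 with NCsiRNA and 0.168 RPKM in Huh7 with CDCA8siRNA. Those levels stand for about 1.0, 8.1, 4.0 and 3.0 reads. It did not reach 1 RPKM in any library and was left out of every comparison, so that 9 of the 10 genes were tested. The intestinal genes CDX1, FABP2, LCT and SI were under 1 RPKM in all 4 libraries as well.

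**Figure D1:**
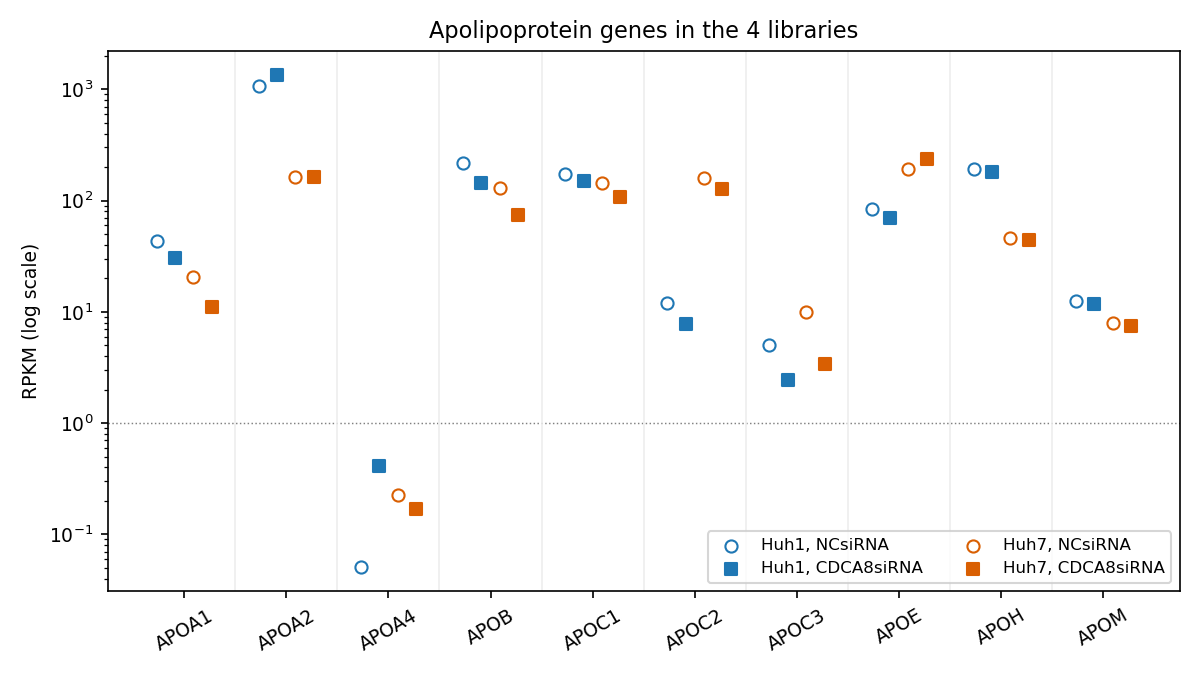
Level of each of the 10 apolipoprotein transcripts in RPKM (log axis) in the 4 libraries, 1 point per library. The dotted line marks 1 RPKM, which APOA4 did not reach in any library, and APOA2 in Huh1 lies highest, at 1072 and 1336 RPKM.

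The first comparison asked how the 10 transcripts differed between CDCA8siRNA and NCsiRNA within a cell line. APOA1, APOB and APOC2 fell across both lines. APOA2, APOC1, APOE, APOH and APOM did not pass the test, and no member rose. The changes were small: in Huh1 no member was changed 2-fold in either direction, beside 0.174% of all tested genes that were at least 2-fold lower and 0.320% that were at least 2-fold higher. In Huh7 none of the 8 tested members other than APOC3 was changed 2-fold, beside 0.700% of genes lower and 0.873% higher, and APOC3, chosen for its direction, was past 2-fold lower. Fold changes are differences of log2(RPKM + 1), which understates the change of a low transcript such as APOC3. The split of the 2-fold genes of Huh1, 35 higher and 19 lower, became 22 and 20 after quantile normalization.

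The test was limma's moderated test on all 4 libraries, in which cell line entered as a covariate, with p-values adjusted by the Benjamini-Hochberg method over 10357 genes. With 1 library per condition, its p-values do not measure the spread between cultures of one line. Each sets the siRNA difference against a spread drawn only in small part from how far Huh1 and Huh7 differed for that gene. The larger part comes from all genes of like level (1 residual against 8.29 prior degrees of freedom). By this test 4.21% of all genes fell and 6.03% rose. Of the 8 tested members other than APOC3, 3 fell, 0 rose and 5 did not pass. The median difference over the 9 tested members was -0.28 in Huh1, -0.35 in Huh7 and -0.31 in the limma fit, beside 0.02, 0.03 and 0.03 over all genes. APOC3, chosen for its direction, is among the 9 and lies at their low end, so these medians are a description only. Without it the Huh1 median lies between APOE at -0.28 and APOC1 at -0.20. That of Huh7 then lies between APOC2 at -0.35 and APOM at -0.08, and that of the fit between APOC1 at -0.31 and APOM at -0.08.

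APOB, the scaffold of very low density lipoprotein, was at 217 RPKM in Huh1 with NCsiRNA and 144 RPKM with CDCA8siRNA, and at 130 and 74.2 RPKM in Huh7. Its level with CDCA8siRNA was thus the lower in each line, at 66.3% and 57.0% of that with NCsiRNA. The log2 fold change was -0.59 in Huh1 and -0.80 in Huh7, and the limma estimate over both was -0.70 ± 0.0858 (SE, adjusted p = 0.00251, limma). At 12860.5 to 41037 reads, APOB is the most deeply covered member, and sampling of reads alone gives its fold changes an SD of 0.0113 and 0.0158. Only 0.937% of all genes in the fit had a lower estimate.

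APOA1, which gives high density lipoprotein its structure, was at 43.0 and 30.7 RPKM in Huh1 and at 20.4 and 11.0 RPKM in Huh7, NCsiRNA first. It was the lower with CDCA8siRNA in each line, at 71.4% and 54.0%. Its log2 fold changes of -0.47 and -0.83 gave a limma estimate of -0.65 ± 0.112 (SE, adjusted p = 0.00962, limma).

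APOC2, the activator of lipoprotein lipase, was at 12.1 and 7.80 RPKM in Huh1 and at 161 and 126 RPKM in Huh7. The level with CDCA8siRNA was again the lower in each line, at 64.5% and 78.2%, although the Huh1 values rest on only 117.7 and 74.8 reads. The log2 fold changes were -0.57 (sampling SD 0.192) and -0.35 (sampling SD 0.0571), with a limma estimate of -0.46 ± 0.0974 (SE, adjusted p = 0.0201, limma). The calls of APOA1, APOB and APOC2 ended in a limma fit without the filter on low values and in one without the cell line covariate, where 0 genes passed at all.

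APOC1, which inhibits lipid transfer and remnant uptake, missed the threshold. It was at 173 and 150 RPKM in Huh1 and at 143 and 107 RPKM in Huh7, with log2 fold changes of -0.20 and -0.41 and a limma estimate of -0.31 ± 0.0850 (SE, adjusted p = 0.0525, limma). It passed when the filter was raised to 5 RPKM (adjusted p = 0.0403, limma) and after quantile normalization (adjusted p = 0.0310, limma).

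APOC3, the member chosen for its direction, was at 5.05 RPKM in Huh1 with NCsiRNA and 2.42 RPKM with CDCA8siRNA, and at 9.998 and 3.36 RPKM in Huh7. That left 47.9% and 33.7% of the level with NCsiRNA, and log2 fold changes of -0.82 (sampling SD 0.314) and -1.33 (sampling SD 0.283). These values rest on 37.1, 17.5, 67.1 and 22.7 reads, the fewest of any member that was tested. With a pseudocount of 0.1 RPKM in place of 1, APOC3 was also past 2-fold in Huh1.

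APOH, also known as beta-2-glycoprotein I, a plasma protein that binds phospholipids, was at 192 and 179 RPKM in Huh1 and 45.7 and 44.4 RPKM in Huh7. Its levels with both siRNAs lay close together in each line, and the limma estimate was -0.07 ± 0.0823 (SE, adjusted p = 0.642, limma). APOM, the carrier of sphingosine 1-phosphate in high density lipoprotein, was at 12.5 and 11.7 RPKM in Huh1 and 7.86 and 7.39 RPKM in Huh7, with an estimate of -0.08 ± 0.107 (SE, adjusted p = 0.667, limma).

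APOA2, given above by its levels, had log2 fold changes of 0.32 (sampling SD 0.0235) in Huh1 and 0.01 (sampling SD 0.0658) in Huh7. The limma estimate was 0.16 ± 0.0853 (SE, adjusted p = 0.268, limma). It was thus higher with CDCA8siRNA in Huh1, by 1.25-fold, while in Huh7 the difference was smaller than its sampling SD.

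APOE was the member whose direction differed between the lines. It was at 84.5 and 69.4 RPKM in Huh1 and at 193 and 236 RPKM in Huh7. The log2 fold change was -0.28 in Huh1 and 0.29 in Huh7, a difference of 0.57 that was 8.38 times the SD that sampling of reads gives. For APOB, lower in both lines, the difference of Huh7 from Huh1 was -10.9 such SDs, and for APOA2 -4.44. The limma estimate of APOE over both lines was 0.01 ± 0.122 (SE, adjusted p = 0.980, limma). No test of the difference between lines can be made with 1 library per condition. Opposite directions were not particular to APOE. Of the 9 hepatocyte markers, 7 were lower in both lines, but TTR was at -0.15 in Huh1 and 0.71 in Huh7, and AFP at 0.14 and -0.27. The share of all genes with opposite directions was not counted.

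**Figure D2:**
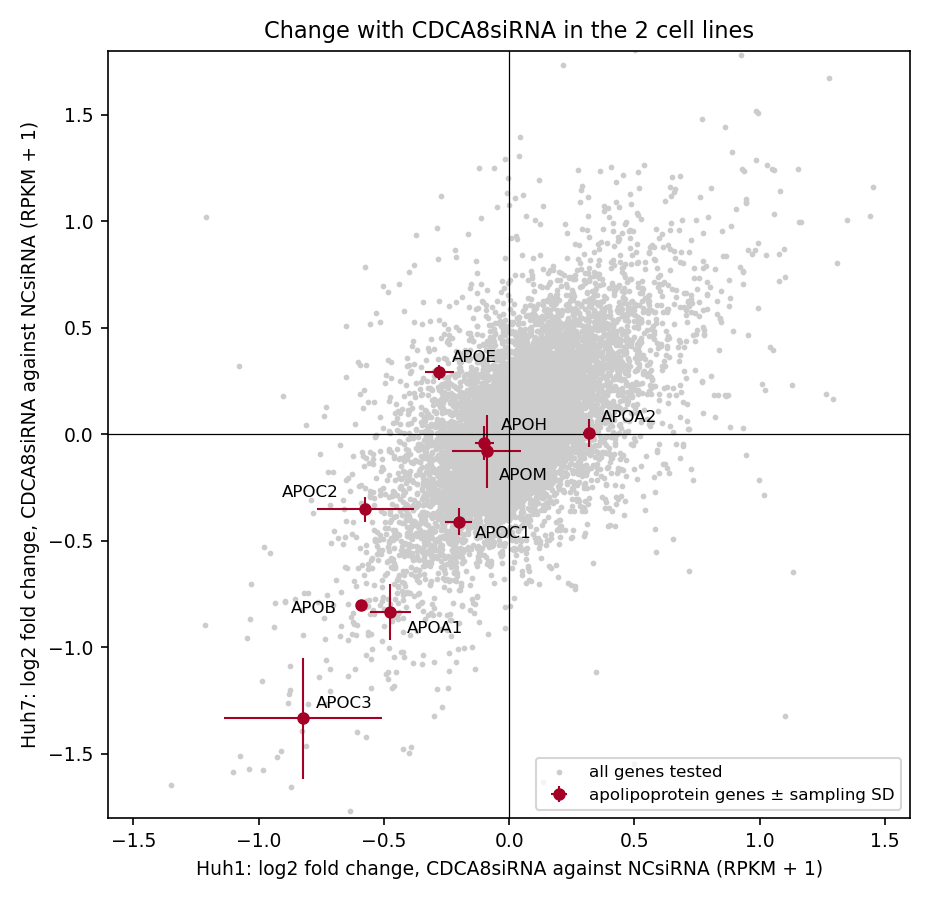
Log2 fold change with CDCA8siRNA against NCsiRNA on the log2(RPKM + 1) scale in Huh1 (horizontal axis) and Huh7 (vertical axis), 1 point per gene, with all tested genes behind the 9 apolipoprotein genes and bars of 1 sampling SD (11 genes lie outside the range drawn). Of the 9, 7 lie below 0 in both lines, APOA2 lies above 0 and APOE lies below 0 in Huh1 and above 0 in Huh7.

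Counted by direction alone, 7 of the 9 tested members were lower with CDCA8siRNA in both lines at any size of change, and 6 of the 8 other than APOC3, beside 30.5% of all genes. The 6 were APOA1, APOB, APOC1, APOC2, APOH and APOM. Each of the 9 kept the sign of its change in each line under each scaling tried. Each of the 8 other than APOC3 kept that of its limma estimate. Another filter or pseudocount cannot change a sign within a line, so those settings were no check of it.

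Most of the other hepatocyte transcripts examined were lower as well. The summed RPKM of the 9 hepatocyte markers with CDCA8siRNA was 79.4% of that with NCsiRNA in Huh1 and 71.7% in Huh7. ALB alone held 3447 of the 6468 RPKM of the Huh1 sum with NCsiRNA. Of the 9, 7 were lower in both lines, beside 30.5% of all genes. TTR was higher with CDCA8siRNA in Huh7, at 48.5 against 29.3 RPKM, and AFP in Huh1, at 27.5 against 24.8 RPKM. By limma ALB, TF, RBP4, HNF4A, AHSG and SERPINA1 fell, with estimates from -0.53 to -0.40, beside 4.21% of all genes. AFP, AMBP and TTR did not pass. The summed RPKM of the apolipoproteins apart from APOA2 was 80.6% in Huh1 and 85.8% in Huh7. With APOA2 included, the sum was 1811 RPKM with NCsiRNA and 1931 RPKM with CDCA8siRNA in Huh1, where APOA2 outweighed the others, and 874 and 773 RPKM in Huh7. The part of the wider hepatocyte difference in the apolipoprotein values was not tested.

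The second comparison was between the lines. APOA2 and APOH were several-fold higher in Huh1. In Huh7, APOC2 was 13.3-fold higher with NCsiRNA and 16.1-fold with CDCA8siRNA, and APOE 2.28-fold and 3.40-fold. With NCsiRNA, 3 of the 9 tested members, APOA1, APOA2 and APOH, were at least 2-fold lower in Huh7, beside 10.2% of all genes, and 2, APOC2 and APOE, were at least 2-fold higher, beside 17.0%. With CDCA8siRNA the same 3 were lower, beside 10.1% of genes, and the same 2 higher, beside 17.4%. In the limma fit, 6 members were lower in Huh7, beside 28.7% of genes, and 3 were higher, beside 39.1%, so that each of the 9 passed. After quantile normalization the genes past this test were 3445 higher and 3718 lower in Huh7, in place of 4045 and 2971. Without the filter on low values 6 members passed, and the calls of APOC1, APOC3 and APOE ended (adjusted p = 0.0973, 0.169 and 0.0611, limma). In the fit with the filter the adjusted p-values of the 9 lay between 4.85e-09 and 0.00470 (limma). With both siRNAs of a line treated as its repeats, these p-values do not measure a spread between cultures, and each line is 1 line. The spread behind them is drawn in small part from the line difference between siRNAs and mostly from all genes.

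The median of all genes was itself 0.14 higher in Huh7 with either siRNA, and that of the 9 members was -0.60 with NCsiRNA and -0.59 with CDCA8siRNA. The median of all genes moved to 0.28 and 0.27 on a TPM scale and to 0.02 and 0.01 after quantile normalization, and no member changed direction under either. The 2-fold calls with NCsiRNA did depend on scale. APOA1, at -1.04 (sampling SD 0.0950), was at -0.93 on a TPM scale and no longer 2-fold lower. APOC3, at 0.86, was at 1.05 there and past 2-fold higher. The 2-fold genes with CDCA8siRNA, 2089 higher in Huh7 and 1213 lower, became 1680 and 1490 after quantile normalization.

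APOA2 differed most among those lower in Huh7. Its level was 6.56-fold higher in Huh1 with NCsiRNA and 8.14-fold higher with CDCA8siRNA, with a limma estimate of -2.86 ± 0.0853 (SE, adjusted p = 9.94e-09, limma). APOH was 4.20-fold and 4.03-fold higher in Huh1, with an estimate of -2.02 ± 0.0823. APOA1 followed at -1.22 ± 0.112, APOB at -0.84 ± 0.0858, APOM at -0.60 ± 0.107 and APOC1 at -0.38 ± 0.0850, all as log2 of Huh7 against Huh1.

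The start regions of APOA2 and APOH are printed because these members were highest in Huh1 relative to Huh7. Each is the stretch up to the first annotated exon base in the 250 bases before the RefSeq transcription start on GRCh38.p14, read 5′ to 3′ on the minus strand, with APOA2 at chr1:161223632-161223878 and APOH at chr17:66229423-66229665. Capitals mark GTTAAT, a motif found in many liver promoters, on either strand.
APOA2: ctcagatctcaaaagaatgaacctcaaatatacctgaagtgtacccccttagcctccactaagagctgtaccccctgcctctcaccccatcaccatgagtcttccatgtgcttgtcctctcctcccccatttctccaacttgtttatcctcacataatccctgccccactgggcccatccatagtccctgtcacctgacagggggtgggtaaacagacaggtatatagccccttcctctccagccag
APOH: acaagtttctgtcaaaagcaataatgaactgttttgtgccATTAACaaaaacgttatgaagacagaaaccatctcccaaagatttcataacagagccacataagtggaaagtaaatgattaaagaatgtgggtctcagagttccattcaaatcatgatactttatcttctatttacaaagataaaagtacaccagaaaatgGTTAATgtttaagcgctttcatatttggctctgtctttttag

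In the APOH region the motif starts 210 and 49 bases before the start. The 250 bases before a RefSeq start were at hand for 7 of the 10 members, in 9 windows. APOA1, APOB and APOC3 had no window, so their start regions were not searched for any motif. GTTAAT occurred in 1 of the 9, that of APOH, and in 6.23% of all 35116 windows. TATAAA occurred in 1 of the 9, that of APOC2, and in 10.7% of all windows. CCAAT occurred in 2 of the 9, both of APOE, and in 32.0% of all windows. The HNF4 core, searched as CAAAGTCCA or CAAAGGTCA, occurred in none of the 9 and in 0.664% of all windows. Both strands were searched for each motif, and a match is a match of letters and not a bound site. Unlike the printed stretches, the counts cover all 250 bases, annotated exon bases included. The TATAAA of APOC2 and the CCAAT of APOE that starts 27 bases before the start lie past the first such base.

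Of the members higher in Huh7, APOC2 differed by 13.3-fold with NCsiRNA and 16.1-fold with CDCA8siRNA, the largest line difference of the 9, with a limma estimate of 3.74 ± 0.0974 (SE, adjusted p = 4.85e-09, limma). APOE was 2.28-fold and 3.40-fold higher in Huh7, with an estimate of 1.46 ± 0.122. APOC3 was higher in Huh7 on the log2 scale by 0.86 (sampling SD 0.254) with NCsiRNA and by 0.35 (sampling SD 0.337) with CDCA8siRNA. The latter became 0.06 after quantile normalization. Its limma estimate was 0.61 ± 0.147 (SE, adjusted p = 0.00470, limma).

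**Figure D3:**
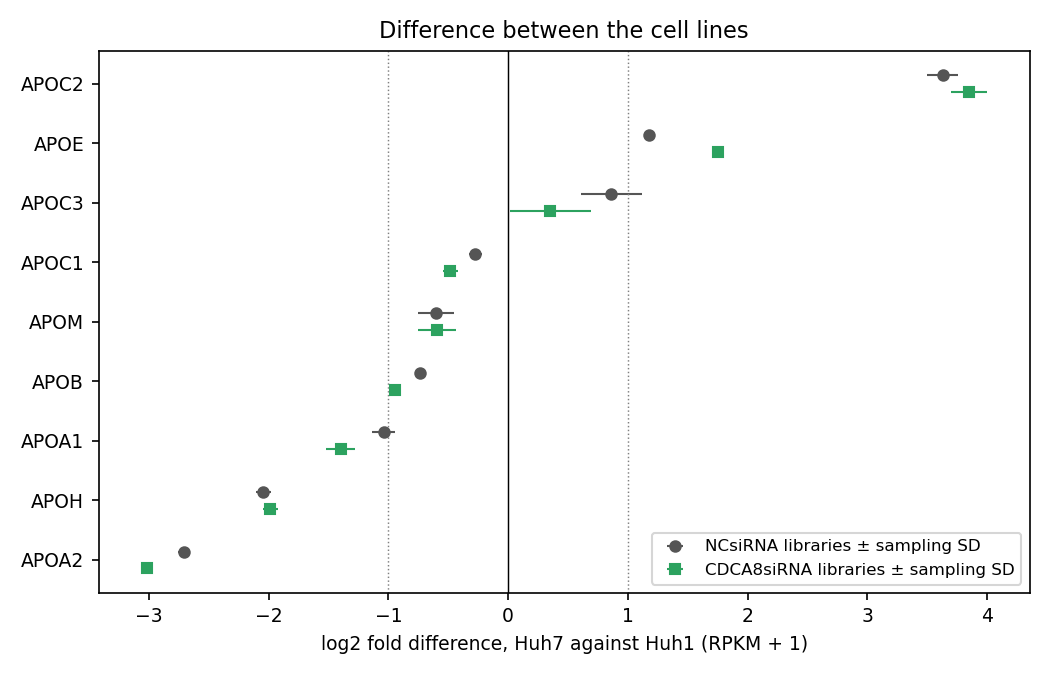
Log2 fold difference of Huh7 against Huh1 on the log2(RPKM + 1) scale for the 9 tested apolipoprotein genes, with 1 point for NCsiRNA and 1 for CDCA8siRNA and bars of 1 sampling SD. Dotted lines mark 2-fold, and APOC2, at 3.63 and 3.85, and APOA2, at -2.71 and -3.02, lie at the ends.

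Neighbouring genes did not share one direction. On chromosome 19, APOC1 was lower in Huh7 while APOC2 and APOE were higher, and the ratio of APOC1 to APOC2 in RPKM was 14.3 and 19.2 in Huh1 against 0.886 and 0.851 in Huh7. On chromosome 11, APOA1 was lower in Huh7 and APOC3 higher, although with CDCA8siRNA the APOC3 difference was close to its sampling SD. The ratio of APOC3 to APOA1 was 0.117 and 0.0788 in Huh1 against 0.491 and 0.306 in Huh7. Within high density lipoprotein proteins, the ratio of APOA2 to APOA1 was 24.9 with NCsiRNA and 43.6 with CDCA8siRNA in Huh1, and 8.01 and 14.9 in Huh7, so it was higher with CDCA8siRNA in each line.

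The makeup of the apolipoprotein RNA differed accordingly. APOA2 made up 59.2% and 69.2% of the summed RPKM of the 10 genes in Huh1, NCsiRNA first, and 18.7% and 21.2% in Huh7. APOE made up 4.67% and 3.60% in Huh1 and 22.0% and 30.5% in Huh7. APOC2 made up 0.668% and 0.404% in Huh1 and 18.4% and 16.3% in Huh7. The 10 genes together took 0.390% and 0.425% of the summed RPKM of all transcripts in Huh1 and 0.207% and 0.186% in Huh7. Without APOA2 the sums of the lines lay close together, at 739 and 595 RPKM in Huh1 and 711 and 609 RPKM in Huh7.

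**Figure D4:**
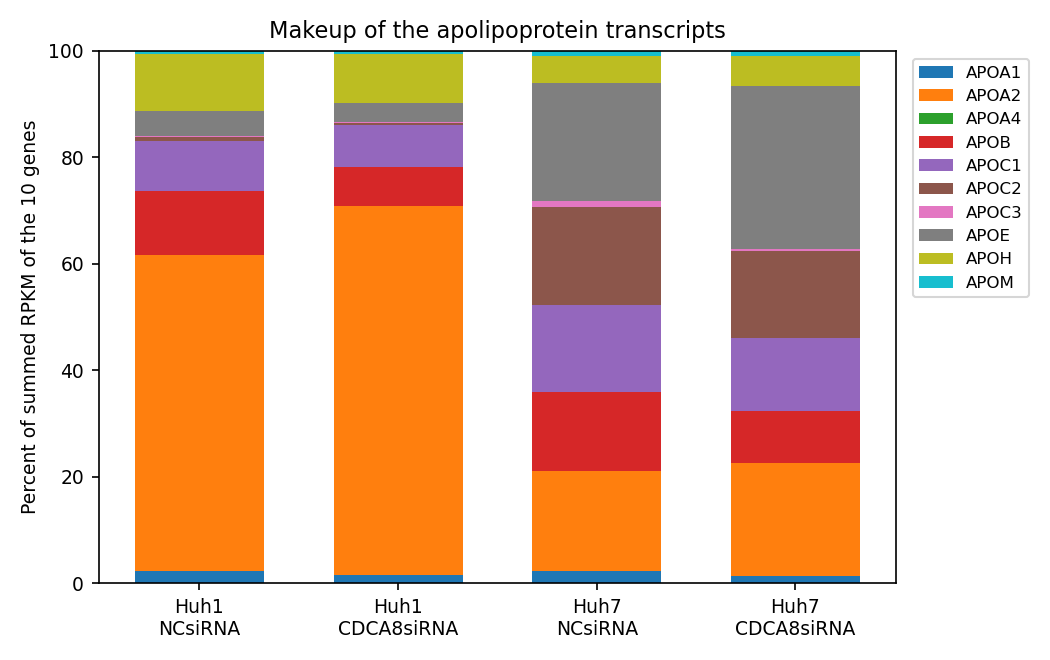
Share of each apolipoprotein gene in the summed RPKM of the 10, in percent, stacked to 100% for each of the 4 libraries. APOA2 takes 59.2% and 69.2% in Huh1, and APOE takes 22.0% and 30.5% in Huh7.

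The remaining genes of the pathway were examined in lists. Of 18 other apolipoproteins or apolipoprotein-like genes found, 7 were tested. Of these, 1 fell across both lines and none rose, beside 4.21% and 6.03% of all genes. The gene that fell was SAA4, a constitutive serum amyloid A protein of high density lipoprotein, with an estimate of -0.61 (adjusted p = 0.0217, limma). APOC4, next to APOC2, and APOA5, next to APOA4, were under 1 RPKM in every library. Between lines, 5 of the 7 were lower in Huh7 and 2 higher, beside 28.7% and 39.1% of all genes. APOL1, which gives human serum its activity against trypanosomes, was at 13.9 and 13.6 RPKM in Huh1 and at 0.941 and 1.10 RPKM in Huh7. PON3, a lactonase carried by high density lipoprotein, was lower in Huh7, with a log2 line difference of -2.05, and CLU, or apolipoprotein J, was higher, at 1.94.

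Of 15 tested genes of lipoprotein assembly and secretion, none passed the siRNA test, beside 4.21% of all genes that fell and 6.03% that rose. MTTP, which loads lipid onto APOB, was at 42.5 and 36.0 RPKM in Huh1 and 17.1 and 14.7 RPKM in Huh7, with an estimate of -0.22 (adjusted p = 0.181, limma). Its line difference, a log2 value of -1.25 for Huh7 against Huh1, was the largest among the 15 tested, followed by MIA2 at -0.95 and SAR1B at -0.80. The latter genes act in the transport of large cargo from the endoplasmic reticulum. In all, 8 of the 15 were higher in Huh7, 5 lower and 2 did not pass, beside 39.1% of all genes higher and 28.7% lower. PRAP1, of the same list, was at 94.2 and 96.7 RPKM in Huh1 and at 0.781 and 0.504 RPKM in Huh7. It did not pass the filter of the fit, and it is named here after its values were seen.

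Among genes of lipoprotein remodelling, only differences between lines are given. ABCA1, the exporter that gives lipid to APOA1, was higher in Huh7 by 2.31 on the log2 scale, and BMP1, a protease that matures APOA1, by 1.47.

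The same holds for the lipoprotein receptors. CD36, a scavenger receptor and fatty acid transporter, was at 48.1 and 50.6 RPKM in Huh1 and at 0.552 and 1.10 RPKM in Huh7. VLDLR was higher in Huh7, with a log2 line difference of 2.04, and SDC1, a remnant-binding proteoglycan, was lower, at -1.62.

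Of 28 tested regulators known to act on apolipoprotein genes, 5 fell and none rose, beside 4.21% and 6.03% of all genes. CEBPA, a factor of hepatocyte differentiation that also stands in a picture of a network the study built from these libraries, was at 94.4 and 47.2 RPKM in Huh1 and at 68.9 and 30.3 RPKM in Huh7, an estimate of -1.07 (adjusted p = 0.000787, limma). HNF4A, a nuclear receptor that binds many apolipoprotein promoters, was at 86.1 and 59.1 RPKM in Huh1 and at 55.4 and 38.8 RPKM in Huh7, an estimate of -0.52 (adjusted p = 0.00878, limma). NR1H4, the bile acid receptor FXR, fell by 0.84 on the log2 scale, ONECUT1 by 0.64 and PROX1 by 0.53, with adjusted p-values of 0.00251, 0.0153 and 0.0277 (limma). The list's median estimate was -0.19, beside 0.03 over all genes. The list was not split by whether a regulator raises or lowers apolipoprotein genes, and HNF4A is also among the hepatocyte markers above.

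Between lines the same list was split, with 14 lower in Huh7, 8 higher and 6 not past the test, beside 28.7% of all genes lower and 39.1% higher. NR1H4 was lower in Huh7, with a log2 line difference of -2.43, as was CREB3L3, a liver factor of lipid metabolism, at -1.91, and PROX1 was higher, at 1.77. NR2F1, an orphan nuclear receptor, was at 0.0245 and 0.121 RPKM in Huh1 and at 12.3 and 17.5 RPKM in Huh7. Its Huh1 levels kept it below the filter of the limma fit, and it is named here after its values were seen.

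The other genes next to the clusters gave 1 siRNA call, beside 4.21% of all genes that fell and 6.03% that rose. Of 8 tested around APOA1, TAGLN, an actin-binding protein of smooth muscle, rose, with an estimate of 0.71 (adjusted p = 0.0193, limma), and was higher in Huh7 by 3.09. Of 8 tested around APOE, none passed the siRNA test, and BCAM, a laminin-binding adhesion molecule, was higher in Huh7 by 3.42. The medians of the 2 lists were 0.11 and -0.02 for the siRNA difference.

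**Figure D5:**
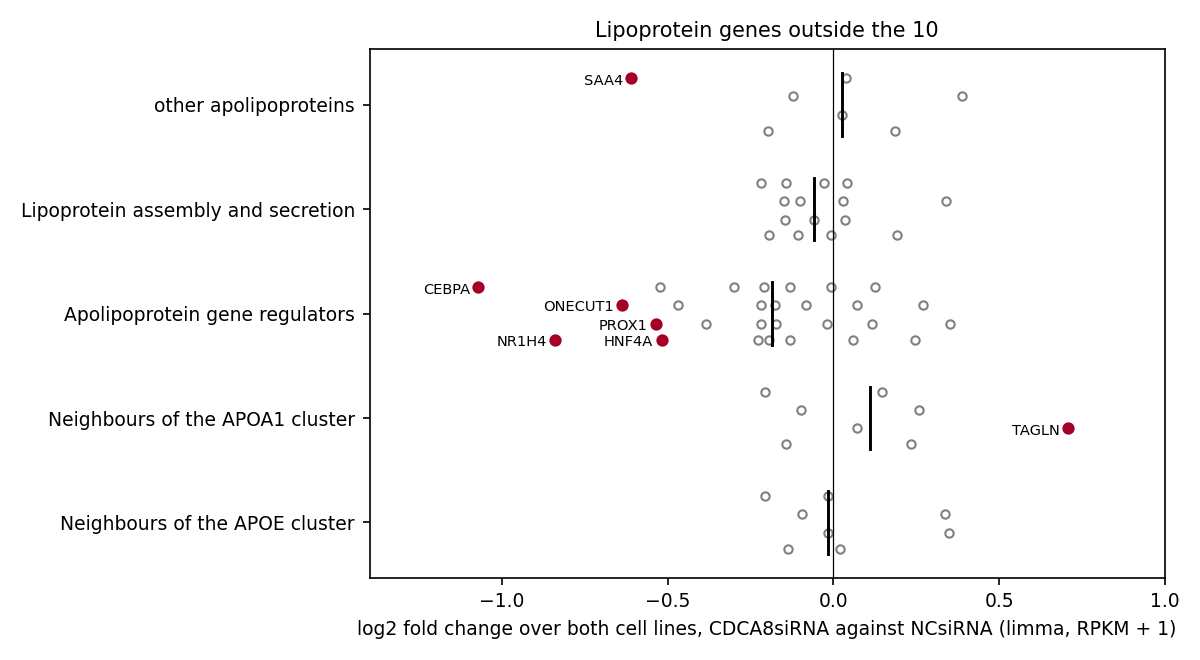
Limma estimate of the log2 fold change with CDCA8siRNA over both cell lines (horizontal axis) for each tested gene of 5 lists, 1 point per gene, with filled points for an adjusted p under 0.05 and a black bar at the median of the list. The regulators hold 5 filled points, all below 0, and the assembly and secretion genes hold none. Of all genes, 4.21% fell and 6.03% rose by this test.

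The genes whose pattern was most like that of APOC3 were sought over 6392 genes with a mean of at least 10 RPKM, by the distance over 3 values, the log2 fold change in each line and the line difference. The 5 nearest were ZFP36L2, at a distance of 0.207, TAB3 at 0.232, PCNA at 0.334, ENOPH1 at 0.447 and CCNC at 0.450. The fold changes of APOC3 that the distances use have sampling SDs of 0.314 and 0.283, so the order of these genes is not resolved, and the likeness is a description. Those are also the values APOC3 was chosen on. APOC3 itself was under 10 RPKM in every library, so log2(RPKM + 1) shrinks its changes more than those of the genes it is set against. ZFP36L2, an mRNA decay factor, was at 16.1 and 9.12 RPKM in Huh1 and 29.4 and 12.8 RPKM in Huh7, and PCNA, the replication clamp, at 109 and 72.8 RPKM in Huh1 and 194 and 71.9 RPKM in Huh7. None of the 5 is an apolipoprotein.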

How the data were processed

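The series holds 4 RNA libraries, 1 per combination of cell line (Huh1, Huh7) and siRNA. Groups were taken from the labels, the dose from the study's transfection methods and the time from a figure legend. Per the labels, libraries were made with the Illumina TruSeq RNA kit, and the submitters' processing notes name CASAVA 1.8.2, TopHat2 2.0.9 and hg19. The authors deposited RPKM values for 18398 RefSeq transcripts, a unit that was deduced from the values. The counting tool, annotation and strand setting are not given in the sources used here.

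Lengths and positions came from GENCODE release 29, matched by RefSeq identifier for 17768 rows. Reads behind a value are RPKM times that length over the value of 1 read, and are off where the authors used another length. Sampling SDs and read numbers cover counting error only.

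Differences were taken on log2(RPKM + 1), leaving out genes under 1 RPKM in both libraries compared, and called at 2-fold. limma 3.58.1 in R 4.3.3 (cell line as covariate, eBayes with trend, 1 residual degree of freedom, prior degrees of freedom 8.29) was fitted to the 10357 genes that passed in both lines, with Benjamini-Hochberg adjustment at 0.05. Its code was run on simulated data in which the siRNA effect was the same in both lines. That run is no check of the spread in these data. No fold or p-value of the authors was used. Named genes were the 10 members, genes of each list past the siRNA threshold (up to 5), up to 3 per list by line difference, and the 5 most like APOC3, apart from some genes that are not reported here. The members and lists were chosen with earlier results of these data known. Python 3.11.15, numpy 2.4.6, pandas 2.3.3 and matplotlib 3.10.9 were used.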

Additional observations from a re-analysis of the deposited data

Results flagged for a closer look

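APOE had opposite directions in the 2 cell lines: its log2 fold change with CDCA8siRNA was -0.28 in Huh1 and 0.29 in Huh7. The difference was not tested, because each condition has 1 library. The share of all genes with opposite directions was not counted.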

How the results depend on the processing

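The number of genes changed 2-fold in Huh1, 54, became 99 on a TPM scale and 164 with a pseudocount of 0.1 RPKM, and the number in Huh7, 182, became 301 and 422. With that pseudocount 1 member, APOC3, was 2-fold lower in Huh1 in place of 0. The number of genes past the limma siRNA threshold, 1061, became 687 on a TPM scale, 0 without the filter on low values (2050 at an unadjusted p under 0.05) and 0 without the cell line covariate (89 at an unadjusted p under 0.05), and the number of members past it, 3, became 0 in both of the latter. The adjusted p of APOB under all alternatives ran from 7.49e-06 to 1.00 and that of APOA1 from 4.25e-05 to 1.00 (limma). Without the 100 highest other transcripts, the share of the 10 genes was 0.585% and 0.625% in Huh1 and 0.278% and 0.248% in Huh7. The cause of these differences was not tested.

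Of the values of single members under these alternatives, 311 kept their direction and call, or moved by less than the interval that sampling of reads gives, 20 moved by more, 2 became and 9 ceased to be past the threshold, and none reversed. A filter leaves a fold change as it is, so its entries, part of the 311, could not move. The filter, trend and covariate settings likewise leave a limma estimate as it is, and only its call could change. The limma fit pairs the siRNAs within each cell line, and its unpaired form is the one without the cell line covariate. The labels give no replicate numbers for another pairing. No library was left out in turn, as the fit has 1 residual degree of freedom. APOC3, with 17.5 to 67.1 reads, and APOA4, with 1.0 to 8.1, have the least precise values.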
